A study of Drosophila melanogaster with 6 samples.

Results

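Spermatocyte and spermatid genes are described here in whole larvae of Drosophila melanogaster at instar 3. The list held 53 names: 12 regulators whose loss arrests meiosis, 33 products of spermatocytes and 8 cup and comet genes. A gene was taken where its symbol stood in the first column of the deposited table, which gives expression in FPKM (fragments scaled by the length of the transcript and by the mapped fragments of the library) for 16662 rows. The names rye and Taf12L are 1 gene, so the list came to 52 genes, of which 51 passed the filter of a mean of at least 1 FPKM and were tested among 10986 rows. The gene below the filter was comr, at 0.892 and 0.629 FPKM in yw, 0.471 and 0.593 FPKM in HP1b16, and 0.441 and 1.95 FPKM in HP1b86. Another 4 members share their row with other genes, and those values cannot be assigned to 1 gene: janB with janA, gdl with Eip71CD and Z600, betaTub85D with Task7, and c-cup with mir-2280.

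The study compared larvae of the yw control strain with larvae of the homozygous HP1b16 and HP1b86 stocks. It looked for changes in expression that go with the loss of the chromosomal protein HP1B. HP1b lies on the X chromosome, so male larvae of these stocks are hemizygous rather than homozygous. Both alleles are deletions from imprecise excision of a P element that take away the start codon of HP1b, both were backcrossed to yw, and the HP1b16 stock still makes an aberrant RNA from the locus. Each genotype had 2 libraries, 6 in all. No source used here gives the number or the sex of the larvae, their hour within the instar, or whether the 2 libraries of a genotype came from separate collections, so p-values measure the spread between these libraries, which may be technical.

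Spermatocytes switch on a large set of genes during the long growth phase before the meiotic divisions. A pair of regulator groups opens this programme: the tMAC complex, a testis form of a chromatin complex found in other tissues, and the tTAFs, testis forms of general transcription factor subunits. Spermatocytes make much of the RNA for the later sperm tail and sperm chromatin and store it until it is translated in spermatids, whereas the cup and comet genes are known for transcription after meiosis. Testes are a male organ, and those of larvae hold spermatogonia and spermatocytes. In whole larvae, fewer cells of a type and less RNA per cell cannot be told apart.

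The libraries of HP1b86 stood apart from each other, and their values are given for each library. HP1b itself was at 22.8 and 24.2 FPKM in yw, at 2.55 and 3.13 FPKM in HP1b16 and at 0.121 and 0.0403 FPKM in HP1b86, in accord with the labels of all 6 libraries. The FPKM of a library summed to between 654430 and 1132181, with the highest sum in HP1b86 replicate 1. The depth of each library relative to yw replicate 1 was estimated from the steps between low FPKM values. It lay between 0.785 and 1.31 in the other yw and HP1b16 libraries, and at 0.432 and 0.648 in HP1b86 replicates 1 and 2. The read numbers that the paper gives per sample span a narrower range than these estimates. The estimates hold only if FPKM were not rescaled between libraries, which the sources do not state. The step of HP1b86 replicate 1 rested on 70 of 904 low rows. The HP1b86 libraries also carry another naming scheme in their titles than the other 4.

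Most members (43 of 51, against 15.4% of all tested rows) showed 1 order of the libraries: highest in HP1b86 replicate 2, then yw, then HP1b16, and lowest in HP1b86 replicate 1. The median FPKM of the 51 tested members was 20.9 and 13.6 in yw replicates 1 and 2, 12.3 and 11.1 in HP1b16, and 9.47 and 34.4 in HP1b86. Over all tested rows the median was between 9.65 and 12.3 FPKM in every library. The 2 libraries of HP1b86 therefore hold both ends of the range of the members, and the libraries of HP1b16 lie close to each other.

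**Figure D1:**
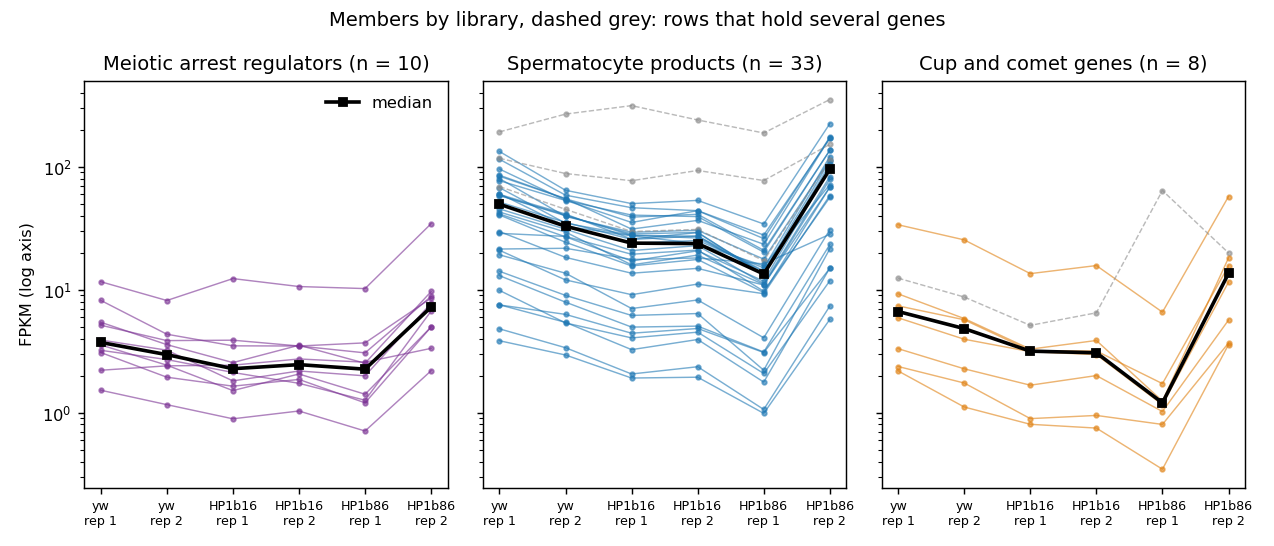
FPKM (log axis) of the 51 tested members in the 6 libraries, with 10 regulators, 33 spermatocyte products and 8 cup and comet genes in separate panels. Each thin line is a member, dashed grey lines are rows that hold several genes, and the black line is the median, which for spermatocyte products falls from 49.5 FPKM in yw replicate 1 to 13.4 in HP1b86 replicate 1 and stands at 95.5 in HP1b86 replicate 2.

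HP1b86 replicate 2 was the highest of the 6 libraries for 50 of 51 members, against 29.7% of all tested rows, and the exception was the c-cup row. HP1b86 replicate 1 was the lowest for 44 members, against 34.0% of all rows, and the exceptions were achi, vis, mia, Taf12L, Mst35Ba, janB and c-cup. The full order, with HP1b86 replicate 2 above both yw libraries, both yw above both HP1b16 and both HP1b16 above HP1b86 replicate 1, held for 43 members. These were 6 of 10 regulators, 30 of 33 spermatocyte products and 7 of 8 cup and comet genes. These are counts over single libraries, and members are not replicates of a genotype.

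The regulators had the lowest median of the roles in every library but HP1b86 replicate 1, where the cup and comet genes were lower. Their median was 3.72 and 2.96 FPKM in yw, 2.27 and 2.45 FPKM in HP1b16, and 2.26 and 7.22 FPKM in HP1b86. Of the tMAC genes, aly, which encodes a core subunit, was at 3.08 and 1.94 FPKM in yw, 1.64 and 1.86 FPKM in HP1b16, and 1.20 and 4.97 FPKM in HP1b86. The zinc finger subunit gene topi was at 3.55 and 2.43 FPKM in yw, 1.51 and 2.06 FPKM in HP1b16, and 1.41 and 4.97 FPKM in HP1b86. Both genes had their highest value in HP1b86 replicate 2 and their lowest in HP1b86 replicate 1. The gene tomb, for a DNA-binding subunit, was at 3.21 and 2.70 FPKM in yw, 2.12 and 1.73 FPKM in HP1b16, and 1.26 and 6.69 FPKM in HP1b86, the widest ratio between the HP1b86 libraries among the regulators, at 5.30-fold.

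The neighbours achi and vis encode near-identical homeodomain proteins of the same complex, and how reads that match both were assigned is not stated. The achi row was at 5.14 and 3.85 FPKM in yw, 3.88 and 3.48 FPKM in HP1b16, and 3.69 and 8.53 FPKM in HP1b86. The vis row was at 3.89 and 3.22 FPKM in yw, 1.81 and 2.18 FPKM in HP1b16, and 1.99 and 7.75 FPKM in HP1b86. For both rows HP1b86 replicate 1 lay within the range of HP1b16, and only replicate 2 lay above yw.

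Among the tTAF genes, sa, a Taf8-like gene, was at 8.18 and 4.34 FPKM in yw, 3.49 and 3.48 FPKM in HP1b16, and 3.06 and 8.82 FPKM in HP1b86. The Taf4-like gene nht was at 5.43 and 3.57 FPKM in yw, 2.55 and 3.53 FPKM in HP1b16, and 2.52 and 9.66 FPKM in HP1b86. The Taf5-like gene can was at 1.52 and 1.16 FPKM in yw, 0.890 and 1.03 FPKM in HP1b16, and 0.708 and 2.19 FPKM in HP1b86. In these 3 genes both HP1b16 libraries lay below both yw libraries, by a margin smaller than the distance between the yw libraries.

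The other tTAF genes departed from this. The Taf6-like gene mia was at 2.21 and 2.40 FPKM in yw, 2.43 and 2.73 FPKM in HP1b16, and 2.57 and 3.33 FPKM in HP1b86, and its ratio between the HP1b86 libraries, 1.30-fold, was the lowest of the regulators. Taf12L, the Taf12-like gene and the most abundant regulator, was at 11.6 and 8.16 FPKM in yw, 12.3 and 10.6 FPKM in HP1b16, and 10.2 and 34.4 FPKM in HP1b86. For mia both HP1b16 libraries lay above both yw libraries, and for Taf12L only HP1b86 replicate 2 lay outside the range of the other genotypes.

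The spermatocyte products made up most of the RNA of the list, with a median of 49.5 and 32.8 FPKM in yw, 23.9 and 23.7 FPKM in HP1b16, and 13.4 and 95.5 FPKM in HP1b86. The Mst84D genes, 4 neighbours that encode cysteine-rich proteins of the sperm tail, were among the most abundant. Mst84Da was at 133 and 64.3 FPKM in yw, 50.1 and 53.2 FPKM in HP1b16, and 34.2 and 224 FPKM in HP1b86. Mst87F, a gene of the same protein family, was at 115 and 58.7 FPKM in yw, 46.4 and 43.9 FPKM in HP1b16, and 27.8 and 170 FPKM in HP1b86. For both genes the HP1b16 libraries lay below both yw libraries, but yw replicate 2 lay nearer to HP1b16 than to yw replicate 1. The values of Mst84Db, Mst84Dc and Mst84Dd followed the same order, from 14.0, 17.7 and 15.6 FPKM in HP1b86 replicate 1 to 112, 114 and 71.6 FPKM in HP1b86 replicate 2.

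Genes for sperm chromatin showed the order too. Mst77F, which encodes a linker histone-like protein of sperm nuclei, was at 85.3 and 55.0 FPKM in yw, 31.1 and 36.6 FPKM in HP1b16, and 23.4 and 172 FPKM in HP1b86. The protamine genes Mst35Ba and Mst35Bb are neighbours of like sequence. Mst35Bb was at 41.3 and 26.9 FPKM in yw, 17.1 and 20.7 FPKM in HP1b16, and 11.7 and 97.3 FPKM in HP1b86. Mst35Ba was at 20.9 and 12 FPKM in yw, 9.10 and 11.1 FPKM in HP1b16, and 9.27 and 58.3 FPKM in HP1b86, so that its lowest library was HP1b16 replicate 1. Relative to the mean of yw, HP1b86 replicate 2 stood at 3.55-fold for Mst35Ba, 3.28-fold for Mst98Cb, 2.94-fold for Mst98Ca and 2.85-fold for Mst35Bb, the top of the range among spermatocyte products, whose median was 2.02-fold.

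The leucyl aminopeptidase-like genes, 7 S-Lap genes and loopin-1, encode major proteins of the sperm tail and had nearly the same ratios between libraries. Their HP1b16 mean was between 54.6% (S-Lap3) and 61.2% (loopin-1) of the yw mean, and HP1b86 replicate 2 was between 6.54-fold (S-Lap1) and 8.48-fold (S-Lap5) above replicate 1. S-Lap1, the most abundant of them, was at 83.7 and 54.8 FPKM in yw, 38.9 and 41.0 FPKM in HP1b16, and 20.9 and 136 FPKM in HP1b86. The least abundant, S-Lap5, was at 7.53 and 5.42 FPKM in yw, 3.25 and 3.93 FPKM in HP1b16, and 1.77 and 15 FPKM in HP1b86. The ratios hardly changed over this range of levels, but the genes are paralogs, and the sources do not state how reads that match several of them were assigned.

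Genes for sperm mitochondria and for meiosis followed as well. The gene fzo, for the mitofusin that fuses mitochondria in spermatids, was at 14.1 and 8.98 FPKM in yw, 6.17 and 6.39 FPKM in HP1b16, and 2.21 and 21.5 FPKM in HP1b86, the widest ratio between the HP1b86 libraries among spermatocyte products, at 9.76-fold. The testis cytochrome c gene Cyt-c-d was at 42.8 and 29.4 FPKM in yw, 15.9 and 19.1 FPKM in HP1b16, and 11.0 and 68.1 FPKM in HP1b86. The gene twe, for the Cdc25 phosphatase of meiosis, was at 7.51 and 6.29 FPKM in yw, 4.42 and 4.83 FPKM in HP1b16, and 3.08 and 14.9 FPKM in HP1b86. For bol, an RNA-binding protein needed for the translation of twe, the values were 28.7 and 27.1 FPKM in yw, 19.4 and 21.0 FPKM in HP1b16, and 9.70 and 56.3 FPKM in HP1b86. In twe and bol the yw libraries lay close together and both HP1b16 libraries lay below them.

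Sperm tail genes dj (don juan) and djl, which are neighbours, were at 40.5 and 24.3 FPKM and at 19.2 and 13.6 FPKM in yw. They were at 15.6 and 17.6 FPKM and at 7.02 and 8.24 FPKM in HP1b16. In HP1b86 they were at 9.47 and 68.2 FPKM and at 4.06 and 30.7 FPKM, so the ratio of the HP1b86 libraries was alike for both, 7.21-fold and 7.56-fold. The betaTub85D row, whose gene encodes the testis beta-tubulin, was at 68.9 and 45.0 FPKM in yw, 29.7 and 30.9 FPKM in HP1b16, and 17.2 and 113 FPKM in HP1b86.

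Rb97D and the rows of janB and gdl among the spermatocyte products had a narrow range. The gene Rb97D, which encodes an RNA-binding protein of the Y chromosome loops of spermatocytes, was at 21.4 and 21.7 FPKM in yw, 17.6 and 18.1 FPKM in HP1b16, and 16.2 and 28.2 FPKM in HP1b86. The janB row was at 117 and 88.0 FPKM in yw, 76.9 and 93.2 FPKM in HP1b16, and 77.2 and 152 FPKM in HP1b86. The gdl row was at 192 and 268 FPKM in yw, 314 and 240 FPKM in HP1b16, and 188 and 352 FPKM in HP1b86. The latter pair of rows holds other genes beside the member, and ocn, the neighbour of janB with a row of its own, ran from 26 FPKM in HP1b86 replicate 1 to 174 FPKM in replicate 2.

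The cup and comet genes, whose transcripts gather at the ends of elongating spermatids, were measurable in these larvae, with a median of 6.64 and 4.82 FPKM in yw, 3.16 and 3.06 FPKM in HP1b16, and 1.20 and 13.5 FPKM in HP1b86. The most abundant was soti, a regulator of caspase activity when spermatids separate, at 33.7 and 25.4 FPKM in yw, 13.5 and 15.7 FPKM in HP1b16, and 6.56 and 57.2 FPKM in HP1b86. The gene t-cup was at 9.24 and 5.82 FPKM in yw, 3.28 and 3.86 FPKM in HP1b16, and 1.24 and 18.1 FPKM in HP1b86, the widest ratio of all members, at 14.6-fold. The neighbours schuy and hale ran alike: schuy was at 7.38 and 5.69 FPKM in yw, 3.19 and 3.17 FPKM in HP1b16, and 1.72 and 15.6 FPKM in HP1b86. The lowest members, d-cup and p-cup, were at 0.346 and 0.801 FPKM in HP1b86 replicate 1 and at 3.57 and 3.68 FPKM in replicate 2.

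The c-cup row went against the rest. It was at 12.4 and 8.71 FPKM in yw, 5.12 and 6.48 FPKM in HP1b16, and 64.0 and 19.9 FPKM in HP1b86. In yw and HP1b16 it lay as the other cup genes did, and in HP1b86 replicate 1, the lowest library of those genes, it had its highest value. The row also holds the microRNA gene mir-2280, and the table does not show which gene gave the signal.

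Between the HP1b86 libraries, replicate 2 was above replicate 1 for 50 of 51 members and for 55.5% of all tested rows. The median ratio in FPKM was 6.54-fold over the members and 1.05-fold over all rows. It was 3.45-fold for regulators, 6.73-fold for spermatocyte products and 8.88-fold for cup and comet genes, and the ranges of the roles overlapped. A difference of at least 4-fold on the scale of FPKM + 1 was seen for 32 members, 28 of them spermatocyte products, 4 cup and comet genes and 0 regulators, and for 9.27% of all rows. These 32 were 62.7% of the tested members and 3.14% of the 1018 rows with such a difference. Adding 1 to FPKM makes ratios of low genes smaller, which bears on the regulators. A difference between 2 single libraries has no replicate check.

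**Figure D2:**
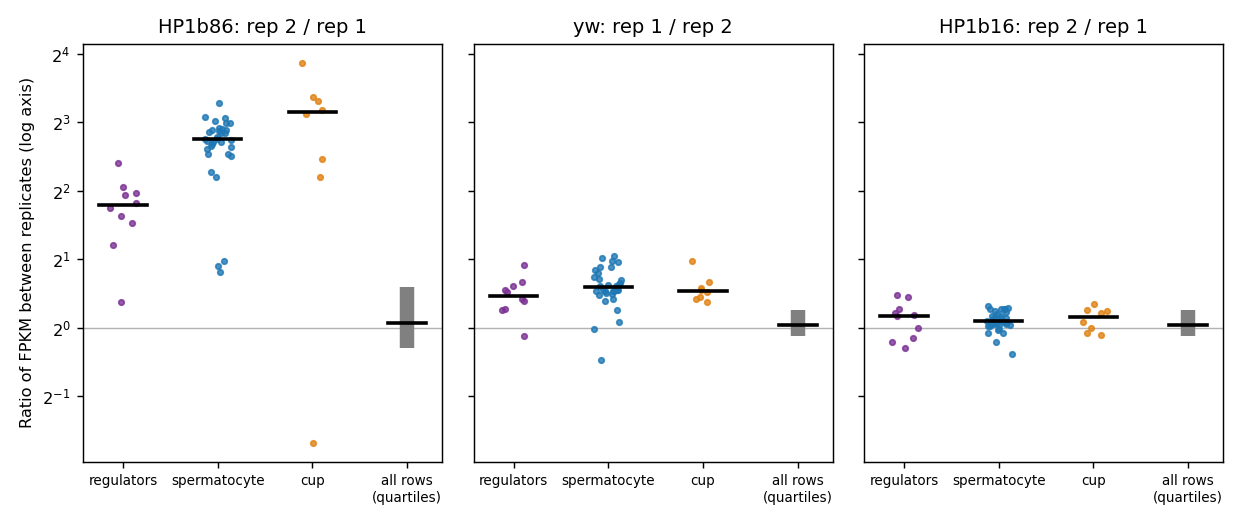
Ratio of FPKM between the 2 libraries of each genotype (log axis), for the tested members by role (points, with the median as a black line) and for all tested rows (grey bar from the lower to the upper quartile, with the median). In HP1b86 the median of members is 6.54-fold against 1.05-fold for all rows, in yw 1.46-fold against 1.03-fold, and in HP1b16 1.08-fold against 1.03-fold.

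The yw libraries differed in the same sense on a smaller scale. Replicate 1 was above replicate 2 for 48 of 51 members, against 57.4% of all rows, with mia, gdl and Rb97D as the exceptions, and the median ratio was 1.46-fold against 1.03-fold over all rows. In HP1b16 the median ratio of replicate 2 to replicate 1 was 1.08-fold for members, with a range from 0.763-fold to 1.38-fold, and 1.03-fold over all rows. Across the 47 tested members with a row of their own, the differences between the HP1b86 libraries and those between the yw libraries had a Pearson correlation of 0.57, against 0.40 over all tested rows. This is a description across genes, which are not independent, and it shares the levels of the same genes.

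Compared with yw, HP1b16 had lower values of most members in both libraries. Both HP1b16 libraries lay below both yw libraries for 46 of 51 members, against 46.0% of all tested rows, and the exceptions were achi, mia, Taf12L, janB and gdl. The HP1b16 mean was 56.1% of the yw mean for the median member, 68.6% for regulators, 55.4% for spermatocyte products and 49.0% for cup and comet genes, against 92.0% over all rows. On log2(FPKM + 1) the median difference was -0.68 over the members, with 48 of 51 below 0, and -0.10 over all rows. With all 6 libraries in 1 limma fit, 0 of 51 members passed the threshold of an adjusted p of 0.05, with adjusted p from 0.498 to 0.823, and 0 had an unadjusted p under 0.05. The background was 0.0182% of all tested rows called in this comparison, while 2605 of 10986 rows had an unadjusted p under 0.05. A single spread is estimated per row for all genotypes, so the distance between the HP1b86 libraries enters these standard errors, whose median over the members was 0.86.

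With HP1b16 and yw alone in the fit, 4 members were lower after adjustment and 0 were higher. Over all 10986 rows, 863 were lower and 1519 were higher in this fit. The share of lower members was close to that of all tested rows, 7.86%. The 4 were djl (log2 difference -0.99, standard error 0.20, adjusted p = 0.0346 from limma), Cyt-c-d (-0.99, standard error 0.22, adjusted p = 0.0421), soti (-0.96, standard error 0.18, adjusted p = 0.0313) and schuy (-0.84, standard error 0.15, adjusted p = 0.0293). Leaving out either HP1b86 library is no separate check of these genes. The lone HP1b86 library then adds no spread, so the estimate rests on the same yw and HP1b16 libraries. In the fit that holds all genotypes, where 0 members passed to begin with, leaving out a yw library moved the median difference of the members to -0.41 without replicate 1 and to -0.99 without replicate 2.

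**Figure D3:**
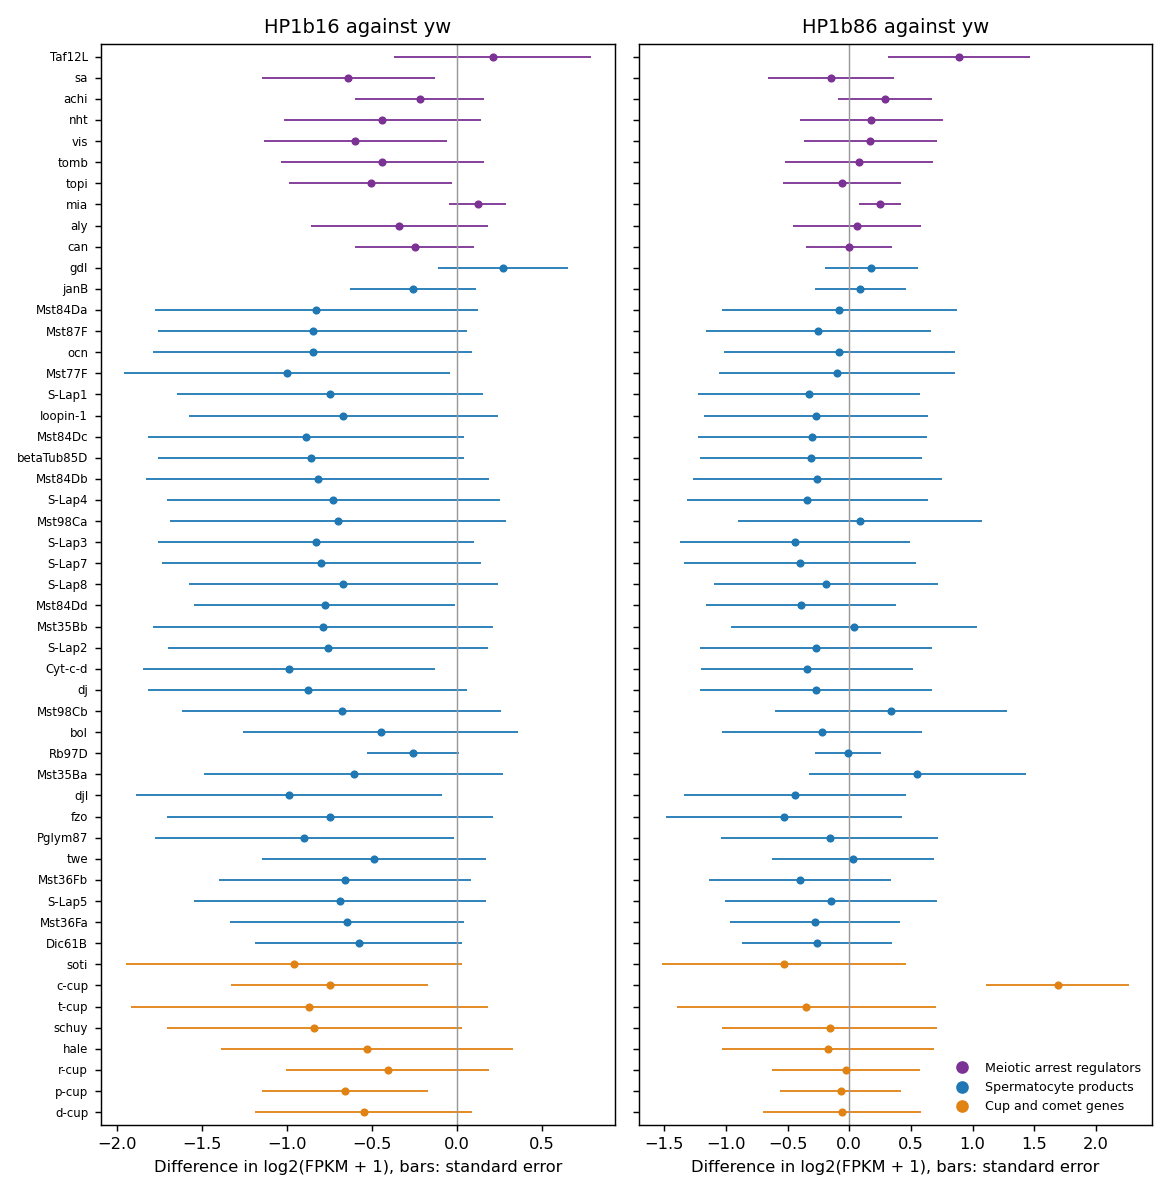
Fitted difference from yw on log2(FPKM + 1) for each of the 51 tested members, in HP1b16 (left) and HP1b86 (right), with bars of 1 standard error from the limma fit of all 6 libraries and colours for the 3 roles. In HP1b16 48 members lie below 0, with a median of -0.68, and in HP1b86 35 do, with a median of -0.15, and 0 members passed the threshold in either.

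For HP1b86 the comparison with yw depended on the library. HP1b86 replicate 1 was below and replicate 2 above both yw libraries for 48 of 51 members, against 22.0% of all tested rows, with mia, Taf12L and c-cup as the exceptions. For the median member HP1b86 replicate 1 was at 33.3% of the yw mean and replicate 2 at 2.02-fold, against 91.6% and 1.13-fold over all rows. In the fit of all 6 libraries 0 of 51 members passed, against 4.03% of all rows, with adjusted p from 0.140 to 1.00 and 1 member, c-cup, at an unadjusted p under 0.05. Of all 10986 rows, 3300 had an unadjusted p under 0.05. The median difference over the members was -0.15, against 0.00 over all rows. With HP1b86 fitted to yw alone 0 members passed in limma, as did 0% of all rows, and 0 members had an unadjusted p under 0.05.

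Leaving out 1 HP1b86 library gave opposite results, in fits where the lone library is assumed to vary like the other genotypes. Without replicate 2, 35 members were lower, against 23.2% of all tested rows, and 1, c-cup, was higher, and the median difference of the members was -1.42. Without replicate 1, 4 members were higher, namely Taf12L, twe, bol and schuy, against 4.36% of all rows, 0 were lower, and the median was 0.99. For schuy the difference was -1.46 (adjusted p = 0.0108) in the former and 1.15 (adjusted p = 0.0476) in the latter limma fit. The direction of the list in HP1b86 thus turned with the library left out.

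In the mean of both mutants against yw, 0 of 51 members passed in limma, against 6.38% of all tested rows. An unadjusted p under 0.05 was seen for 0 members and for 3414 of 10986 rows. The median difference was -0.42, against -0.08 over all rows. Without HP1b86 replicate 2 the median difference of the members was -1.04, against -0.11 over all rows. It was 0.16 without HP1b86 replicate 1, against 0.05 over all rows. All 4 mutant libraries lay below both yw libraries for 0 members, against 19.8% of all rows. Between the alleles, HP1b86 minus HP1b16 was above 0 for 50 of 51 members, with a median of 0.51 against 0.08 over all rows. In limma 0 members passed, against 0.00910% of all rows. An unadjusted p under 0.05 was seen for c-cup alone among the members, and for 868 of 10986 rows. Without HP1b86 replicate 1, 44 members were higher in HP1b86 than in HP1b16, against 16.5% of all rows, and the 7 that did not pass were can, sa, mia, Mst84Dd, Mst36Fb, janB and gdl. Without HP1b86 replicate 2 the median difference of the members between the alleles was -0.62, against -0.01 over all rows. The comparisons share libraries, and their values are not independent of each other.

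For the most abundant members of each role 0 of the fitted differences passed the threshold, and most were smaller than their standard error. Among regulators, the log2 difference from yw in HP1b16 was -0.22 for achi (standard error 0.38), -0.64 for sa (0.51), -0.44 for nht (0.58) and 0.21 for Taf12L (0.58), and in HP1b86 it was 0.29, -0.15, 0.18 and 0.89. For Taf12L the HP1b86 value was 1.72 (adjusted p = 0.0407 from limma) without HP1b86 replicate 1 and 0.06 (adjusted p = 0.856) without replicate 2. Among spermatocyte products it was -0.83 for Mst84Da (0.95), -0.85 for Mst87F (0.91), -0.26 for the janB row (0.37) and 0.27 for the gdl row (0.38) in HP1b16, and -0.08, -0.25, 0.09 and 0.18 in HP1b86. The sign in HP1b86 was not stable for most of these genes when a library was left out or the scaling was changed. Among cup and comet genes it was -0.96 for soti (0.99), -0.75 for the c-cup row (0.58), -0.87 for t-cup (1.05) and -0.84 for schuy (0.87) in HP1b16, and -0.53, 1.69, -0.35 and -0.16 in HP1b86. For the c-cup row the HP1b86 value, 1.69 (standard error 0.58), was 0.87 (adjusted p = 0.0839 from limma) without HP1b86 replicate 1 and 2.51 (adjusted p = 0.00866) without replicate 2.

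Several members have a relative with a similar product that many tissues use, and these counterparts did not follow. Over 12 such pairs the ratio of HP1b86 replicate 2 to replicate 1 was between 0.419-fold and 1.19-fold for the counterparts, with a median of 0.887-fold. The transcript of fzo stood at 62.1% and 35.7% of that of Marf, the mitofusin gene of other tissues, in yw, at 20.3% and 20.0% in HP1b16, and at 6.51% and 73.0% in HP1b86. For tomb the values relative to mip120 were 56.2% and 38.2% in yw, 32.3% and 28.2% in HP1b16, and 20.7% and 130% in HP1b86. In both pairs the share was highest in HP1b86 replicate 2 and lowest in replicate 1, with HP1b16 below yw. This order did not hold for all 12 pairs. Relative to their counterparts, sa, Cyt-c-d and Pglym87 were highest in yw replicate 1, and nht was lowest in HP1b16 replicate 1. Taf12L and mia stood higher in both HP1b16 libraries than in both yw libraries. Marf itself was at 130% of its yw mean in HP1b16, which lowers the fzo share. One counterpart passed the threshold in the mean of both mutants: Cyt-c-p, the cytochrome c gene of other tissues, was at 68.8 and 68.7 FPKM in yw, 334 and 702 FPKM in HP1b16, and 687 and 333 FPKM in HP1b86 (log2 difference 2.79, standard error 0.44, adjusted p = 0.0427 from limma). In the fits that left out 1 library its log2 difference lay between 2.52 and 3.06. The call was lost without any 1 of the yw or HP1b16 libraries. So was every other call over all rows in this comparison, and the loss is not particular to Cyt-c-p. A lone HP1b86 library adds no spread to the fit, so leaving out the other is no check of the call.

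**Figure D4:**
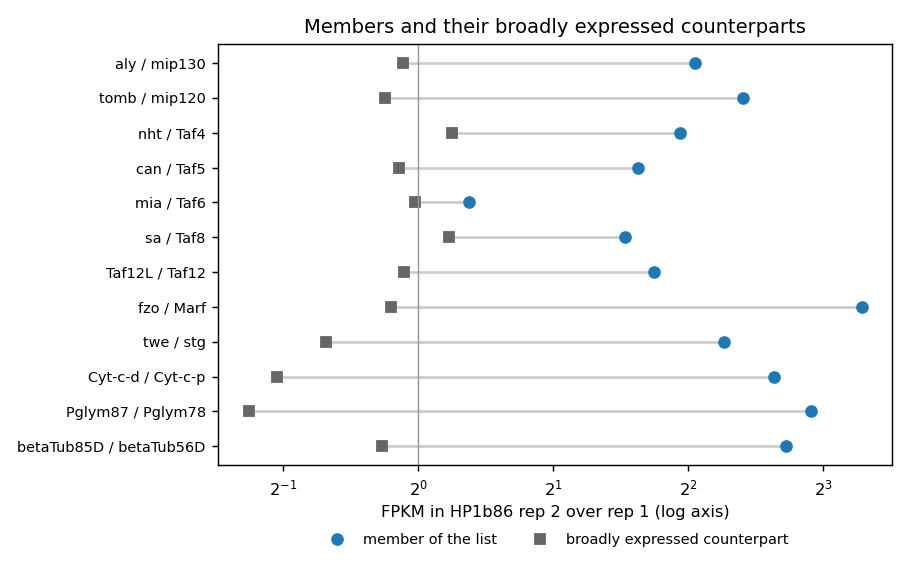
Ratio of FPKM in HP1b86 replicate 2 to replicate 1 (log axis) for 12 members (circles) and for a broadly expressed counterpart of each (squares), 1 pair per line. Counterparts lie between 0.419-fold and 1.19-fold, and in each of the 12 pairs the member lies to the right of its counterpart.

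Other genes of the testis, from lists outside the 53 names, were read in the same way. The testis-specific proteasome subunits were close to the members: HP1b86 replicate 2 was above replicate 1 for 14 of 14, with a median ratio of 7.09-fold, and both HP1b16 libraries were below both yw libraries for 14 of 14, with a median of 53.6% of yw. The most abundant of them with a row of its own, Rpt6R, was at 14.9 and 10.0 FPKM in yw, 9.24 and 8.63 FPKM in HP1b16, and 4.62 and 19.3 FPKM in HP1b86. Of 10 axoneme and sperm tail genes, 8 had replicate 2 of HP1b86 above replicate 1, with a median ratio of 6.68-fold, and Mst33A, the most abundant, was at 35.2 and 22.4 FPKM in yw, 15.4 and 15.7 FPKM in HP1b16, and 8.05 and 55.6 FPKM in HP1b86. Of 7 partners of the spermatocyte programme, such as tbrd-1 and wuc, 6 were higher in replicate 2, with a median ratio of 3.52-fold, near that of the regulators. Of these 3 lists 14, 6 and 7 genes were tested, and the other axoneme and sperm tail genes lay below the filter. Of the tested genes 0 passed the threshold in any of the 4 comparisons. The shares over all tested rows were 0.0182% in HP1b16, 4.03% in HP1b86, 6.38% in the mean of both mutants and 0.00910% between the alleles.

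Y-linked fertility genes, which are transcribed in spermatocytes, were near the lower end of the table. Of 11 with a row, Pp1-Y1 was listed at 0 in every library and only ARY had a mean of at least 1 FPKM, at 1.69 and 0.914 FPKM in yw, 0.855 and 0.714 FPKM in HP1b16, and 0.263 and 2.83 FPKM in HP1b86. Their summed level was 5.13 and 3.62 FPKM in yw, 2.23 and 1.83 FPKM in HP1b16, and 0.798 and 7.84 FPKM in HP1b86, in the order of the members. For 10 of 11 HP1b86 replicate 2 was above replicate 1, but at these levels a value rests on few fragments.

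Markers of other gonad cells moved less. Over 10 genes listed for the early germ line, such as vas, AGO3 and ovo, the median ratio of HP1b86 replicate 2 to replicate 1 was 2.22-fold. The ratio ran from 0.538-fold to 3.49-fold, 9 were higher in replicate 2, and HP1b16 was at 95.8% of yw. Both HP1b16 libraries lay below both yw libraries for 1 of the 10, aub, with HP1b16 at 68.7% of yw and an HP1b86 ratio of 3.08-fold. Use of these genes in other larval tissues was not tested. The differentiation factor bam went the other way, at 0.496 and 0.523 FPKM in yw, 2.85 and 2.23 FPKM in HP1b16, and 2.56 and 1.38 FPKM in HP1b86, and it did not pass in any comparison. In this list the bgcn row also holds Pym, and nos, zpg and otu had means below 1 FPKM. Over 6 genes of the gonadal soma, which other larval tissues also use, the median ratio was 1.49-fold and the summed level was between 62.2 and 81.8 FPKM. Of these only zfh1 passed, in the mean of both mutants, at 12 and 11.5 FPKM in yw, 6.17 and 5.21 FPKM in HP1b16, and 4.79 and 6.46 FPKM in HP1b86 (log2 difference -0.94, standard error 0.15, adjusted p = 0.0455 from limma). For zfh1 the log2 difference lay between -1.03 and -0.85 in the fits that left out 1 library. Its call was lost without any 1 of the yw or HP1b16 libraries, with the same limits as for Cyt-c-p.

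The male dosage compensation RNA roX1 was at 97.1 and 76.8 FPKM in yw, 93.0 and 84.4 FPKM in HP1b16, and 75.7 and 124 FPKM in HP1b86, and roX2 was at 7.98 and 3.47 FPKM in yw, 6.95 and 7.0 FPKM in HP1b16, and 9.68 and 17.4 FPKM in HP1b86. Both were highest in HP1b86 replicate 2, by 1.64-fold and 1.80-fold over replicate 1, and both were higher in yw replicate 1 than in yw replicate 2. In HP1b16 they lay at 102% and 122% of yw, where the median member lay at 56.1%. The part of the sex or the age of the larvae in the members' values was not tested.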

How the data were processed

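RNA-seq of whole larvae was available as 1 table of 6 libraries. The authors deposited FPKM and, per the labels, used bcl2fastq 2.18.0.12, Trim Galore 0.4.1, TopHat2 2.1.1 with the dm3 build, and Cufflinks 2.2.1. Annotation, strand, the handling of reads with several matches and any scaling between libraries are not given in the sources used here. Of 16662 rows, 1604 were at 0 throughout and 626 held several genes. FPKM carry no read numbers, so no counting intervals are given. Relative depth came from the steps of values under 0.3 FPKM, within a window of 0.02 on the log2 scale.

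Values were taken as log2(FPKM + 1), a scale that makes the changes of low genes smaller. Rows whose mean reached 1 FPKM were compared with limma 3.58.1 in R 4.3.3, with a mean-variance trend (prior degrees of freedom 1.59), all 6 libraries in 1 fit and 4 comparisons. Adjusted p are Benjamini-Hochberg values over all 10986 rows, with a threshold of 0.05. The procedure was tested on simulated data. Other pseudocounts, filters, scalings, fits and left-out libraries were tried.

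The members, lists and tests were chosen with earlier results of these data known. Any member could be named. Fitted differences were given for members past the threshold and for the 4 most abundant of each role. Other lists were named by members past the threshold or by abundance. The genes Marf, mip120, bam, vas, AGO3, ovo, aub, tbrd-1 and wuc were chosen after their values were seen. Neighbours were taken from the RefSeq gene table, whose build differs from that of the files, so no coordinates are given.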

Additional observations from a re-analysis of the deposited data

Results flagged for a closer look

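The c-cup row was the 1 member whose mutants lay on opposite sides of yw: both HP1b16 libraries were below both yw libraries and both HP1b86 libraries were above them. On log2(FPKM + 1) the difference HP1b86 minus HP1b16 was 2.45 (standard error 0.58, unadjusted p = 0.00993, adjusted p = 0.579 from limma), so the difference between the alleles did not pass over all rows. The row is shared with mir-2280.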

How the results depend on the processing

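Pseudocount 0.1, no filter, TPM, median-ratio and quantile scaling, rows with 1 gene and no mean-variance trend all gave 0 members called in the 4 comparisons. Leaving out either yw or either HP1b16 library also called none of them. Those fits called almost no row of the whole table, so they say little about the members. With each mutant and its comparison group alone, 4 members were called in HP1b16, all of them lower, against 863 lower rows of 10986. Over the fits that leave out 1 library, called members ranged from 0 to 4 in HP1b16, 0 to 36 in HP1b86, 0 to 37 in the mean of both mutants and 0 to 44 between the alleles, and the median difference of the members from -0.99 to -0.41 in HP1b16 and from -1.42 to 0.99 in HP1b86. The highest of these counts all came from fits with a lone HP1b86 library. In those fits far more rows of the whole table were called than in the main fit, so the rise in calls was not confined to the members. TPM scaling moved the median of all rows to -0.32 in HP1b16 and -0.53 in HP1b86, and that of the members to -0.92 and -0.67.

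Of 378 refits of single named members 26 changed sign and 12 newly passed. Under TPM scaling the sign changed for Taf12L in HP1b16 (-0.01) and achi (-0.20), nht (-0.31), the gdl row (-0.42) and the janB row (-0.50) in HP1b86. Under quantile normalization it changed for the gdl row in HP1b16 (-0.14), and the gdl (-0.40) and janB (-0.34) rows in HP1b86. Over the fits that leave out 1 library the difference ranged from -0.03 to 0.44 for Taf12L in HP1b16, and in HP1b86 from -0.79 to 0.49 for sa, -0.22 to 0.80 for achi, -0.62 to 0.98 for nht, -0.27 to 0.63 for gdl, -0.39 to 0.58 for janB, -1.41 to 1.26 for Mst84Da, -1.53 to 1.03 for Mst87F, -2.0 to 0.94 for soti, -1.90 to 1.19 for t-cup, -1.46 to 1.15 for schuy. The causes of these changes were not tested. Outside the list, the calls of Cyt-c-p and zfh1 in the mean of both mutants were lost with no filter (adjusted p = 0.0536 and 0.0614 from limma), and that of Cyt-c-p also, just above the threshold, with median-ratio scaling.

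Replicate numbers did not pair the libraries: same-numbered deviations correlated at 0.074 between yw and HP1b16, -0.401 between yw and HP1b86 and -0.115 between HP1b16 and HP1b86. The replicate block gave 0 members in every comparison and 0 of all rows. There Cyt-c-p and zfh1 had an adjusted p of 0.126 and 0.134 from limma. With the HP1b86 numbers crossed, chosen after seeing the data, the block gave 535, 790, 1154 and 1 of all rows in the 4 comparisons and 0 members. Over all rows, without the block, those counts were 2, 443, 701 and 1, and ranged over the scalings, filters and pseudocount from 1 to 442, 1 to 2071, 461 to 1246 and 1 to 4. Values of the Y-linked and other low genes rest on few fragments. The estimated depth was lowest in HP1b86 replicate 1, and its part in their values was not tested. Having 2 libraries a genotype limits every comparison.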
